A study of Mus musculus with 40 samples.

Results

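Adenosine and ATP signalling genes were followed as 9 members, Adora1, Adora2a, Adora2b, P2rx7, P2ry1, Adk, Entpd1, Entpd2 and Nt5e, taken by symbol from the 32531 genes counted in each of 40 libraries. The libraries held RNA bound to ribosomes of astrocytes, prepared by translating ribosome affinity purification: one cell type makes a tagged ribosomal protein, and its ribosomes are pulled down with an antibody to the tag. All mice were adults of the transgenic line Tg(Aldh1l1-EGFP/Rpl10a)JD130Htz, in which the Aldh1l1 promoter, active in astrocytes, drives an EGFP-tagged Rpl10a. Stressed mice had met an aggressive CD1 mouse for 10 minutes daily over 10 days (social defeat) and had a social interaction index below 1. Resilient mice went through the same defeat and had an index above 1. Control mice were not defeated, lived in the same room and also had an index above 1. Tissue was taken 2 days after the last defeat. The prefrontal cortex (PFC) had 5 stressed, 4 resilient and 3 control libraries, the hippocampus (HIP) 5, 3 and 3, the nucleus accumbens (NAC) 4, 3 and 3, and the caudate putamen (CPU) 3, 2 and 2. Each library was a pool of 2 mice, or of 4 to 6 mice for the NAC, and whether one mouse gave several regions is not stated. The study asked which astrocyte transcripts differ in stressed mice from both resilient and control mice. Unpurified tissue was not analysed here.

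Astrocytes release ATP, and surface enzymes break it down stepwise to adenosine outside the cell. ATP and ADP act on ion channel receptors (P2X) and G protein coupled receptors (P2Y), whereas adenosine acts on its own receptors, of which the one encoded by Adora1 lowers cyclic AMP and those of Adora2a and Adora2b raise it. Of the ATP receptors followed, P2rx7 encodes a channel that opens at high ATP, and P2ry1 a receptor for ADP. Entpd1 (CD39) cuts ATP and ADP to AMP, Entpd2 mainly turns ATP into ADP, and Nt5e (CD73) turns AMP into adenosine. Adk, adenosine kinase, returns adenosine to AMP inside the cell and in the adult brain is found mostly in astrocytes.

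On GRCm38 (GENCODE vM21 annotation) the receptor genes lie at chr1:134199223-134235431 on the − strand (Adora1), and on the + strand at chr10:75316877-75334784 (Adora2a), chr11:62248984-62266453 (Adora2b), chr5:122643911-122691432 (P2rx7) and chr3:61002795-61008982 (P2ry1). The enzyme genes lie on the + strand at chr14:21052574-21448569 (Adk), chr19:40612366-40741602 (Entpd1), chr2:25395874-25401321 (Entpd2) and chr9:88327197-88372092 (Nt5e). Counts cover all exons of a gene, so isoforms were not told apart.

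The promoter windows of 4 members are shown because Entpd1 and Entpd2, next to each other in the same pathway, were called in opposite directions in the PFC, and because Entpd2, Adora2b and P2rx7 shifted together between libraries. The windows are from RefSeq on GRCm38.p6 and cover 250 bases before to 50 after a gene's start, the first start listed for each gene, all on the + strand. Capitals mark the GC box (GGGCGG, or CCGCCC on the other strand) and the CCAAT box (CCAAT, or ATTGG on the other strand); in the 4 windows no base lay in 2 of these motifs.
Entpd1, chr19:40612116-40612415: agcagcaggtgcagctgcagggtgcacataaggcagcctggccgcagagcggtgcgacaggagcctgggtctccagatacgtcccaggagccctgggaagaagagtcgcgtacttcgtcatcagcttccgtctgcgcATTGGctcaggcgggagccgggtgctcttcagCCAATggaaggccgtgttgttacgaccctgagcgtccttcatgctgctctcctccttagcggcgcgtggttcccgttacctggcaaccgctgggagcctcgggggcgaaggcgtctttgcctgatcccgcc
Entpd2, chr2:25395624-25395923: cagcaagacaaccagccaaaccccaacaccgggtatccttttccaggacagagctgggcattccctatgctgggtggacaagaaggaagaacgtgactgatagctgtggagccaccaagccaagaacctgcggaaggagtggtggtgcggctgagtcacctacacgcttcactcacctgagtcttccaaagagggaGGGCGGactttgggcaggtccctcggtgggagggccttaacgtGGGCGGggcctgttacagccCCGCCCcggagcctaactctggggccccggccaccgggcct
Adora2b, chr11:62248734-62249033: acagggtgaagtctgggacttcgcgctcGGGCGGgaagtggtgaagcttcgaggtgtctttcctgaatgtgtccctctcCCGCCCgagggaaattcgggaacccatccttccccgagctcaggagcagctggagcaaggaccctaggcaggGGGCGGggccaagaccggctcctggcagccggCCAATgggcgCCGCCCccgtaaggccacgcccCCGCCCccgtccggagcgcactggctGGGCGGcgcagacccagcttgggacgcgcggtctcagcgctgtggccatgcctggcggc
P2rx7, chr5:122643677-122643976: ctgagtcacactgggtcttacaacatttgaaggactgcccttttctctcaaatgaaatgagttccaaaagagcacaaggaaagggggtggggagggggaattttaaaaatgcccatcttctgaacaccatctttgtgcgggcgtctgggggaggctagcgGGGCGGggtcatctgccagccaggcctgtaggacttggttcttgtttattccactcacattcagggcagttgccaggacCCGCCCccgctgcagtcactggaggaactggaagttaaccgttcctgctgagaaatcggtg
Entpd2 held 3 GC boxes, Adora2b 6 and P2rx7 2, and the Entpd1 window held 0 GC boxes and 2 CCAAT boxes. GC boxes were also in the first windows of Adora1 (3), P2ry1 (2), Nt5e (4) and Adk (4), which are not shown. A second window listed for P2rx7 held 0. The motif is thus not particular to Entpd2, Adora2b and P2rx7. Adora2b also held 1 CCAAT box. A GC box on either strand was present in 35.7% of all 32851 promoter windows and a CCAAT box in 37.4%, so both motifs are common. The TATA box letters TATAAA, present in 13.6% of windows, were in none of the 12 windows listed for 8 of the members. A match is a description of letters, not a binding site.

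Sequencing depth, taken as the reads counted in genes, was between 21.3 and 33 M (median 25.6 M), and levels are given as CPM, counts per M of that total. All 16 astrocyte markers were counted in every library, and their sum was 25856 to 46546 CPM. RNA of other cells was also present: the sum of 10 general neuron markers was 578 to 5210 CPM, of 9 oligodendrocyte markers 725 to 2549 CPM, of 14 microglia markers 17.3 to 96.9 CPM and of 11 endothelial markers 6.18 to 73.4 CPM. Itgam among the microglia markers and Flt1, Kdr, Tek and Cdh5 among the endothelial markers were at 0 in at least 1 library. The libraries carried names of a short form or a long form, and what the form stands for is not stated. Short and long names were split across conditions in the PFC, HIP and NAC, and all CPU libraries had short names, so results are also given within each form where it matters. In bulk RNA, fewer cells of a type and less RNA per cell cannot be told apart.

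**Figure D1:**
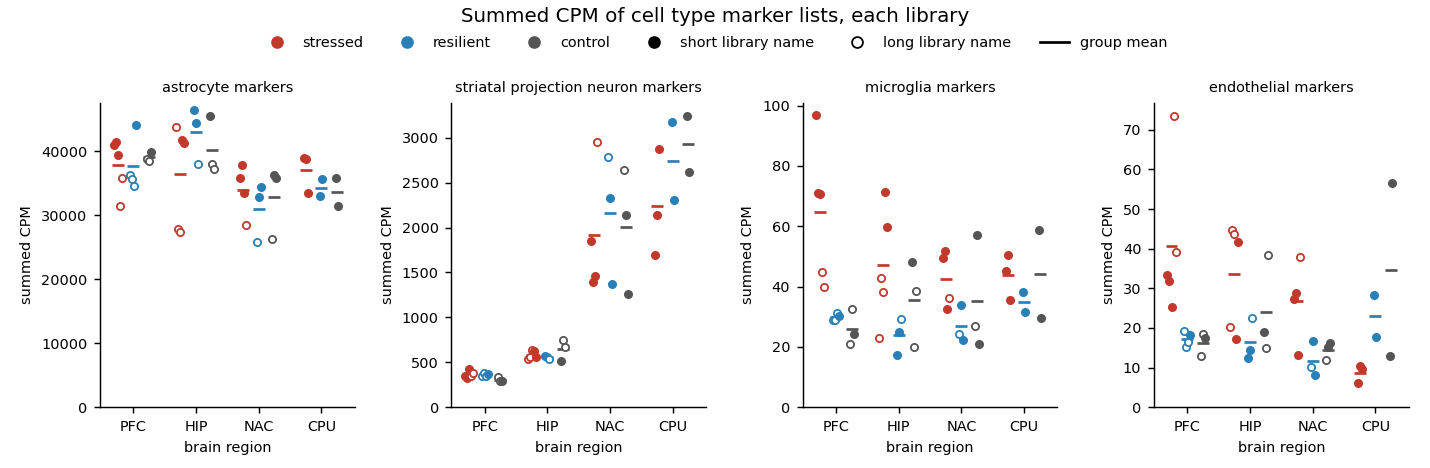
Summed CPM (y axis) of 4 cell type marker lists in each of the 40 libraries, by brain region (x axis) and, from left to right in each region, stressed, resilient and control mice; filled points are libraries with short names, open points those with long names, and lines are group means. Striatal projection neuron markers are high in the NAC and CPU, and microglia markers reach 96.9 CPM in the stressed PFC.

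Adk, which clears adenosine, was the most abundant member per length of transcript in all 12 groups. Its mean level in control mice was 62.6 to 79.3 CPM per kilobase (kb) of exon across the 4 regions. Among the receptors of control mice, Adora1 (18.5 to 40.1 CPM per kb) and Adora2b (16.1 to 26.7 CPM per kb) had higher mean levels than P2rx7 (0.529 to 1.32 CPM per kb) and P2ry1 (0.168 to 1.28 CPM per kb) in every region. Adora2a went from 1.30 CPM per kb in the HIP to 23.3 CPM per kb in the CPU. Of the enzymes on the cell surface, Entpd2 (24.0 to 50.8 CPM per kb) had a mean level above Entpd1 (3.14 to 4.98 CPM per kb) and Nt5e (0.155 to 0.870 CPM per kb) in every region of control mice. The exon lengths are of GENCODE vM21, and the exons of Adora1, Entpd2, P2rx7 and P2ry1 overlap those of Mybph, Npdc1, Mir8115 and the antisense gene Gm37035 in that order. The strand setting of the counting is not given in the sources used here, so reads of these 4 members can be shared with the overlapping gene.

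**Figure D2:**
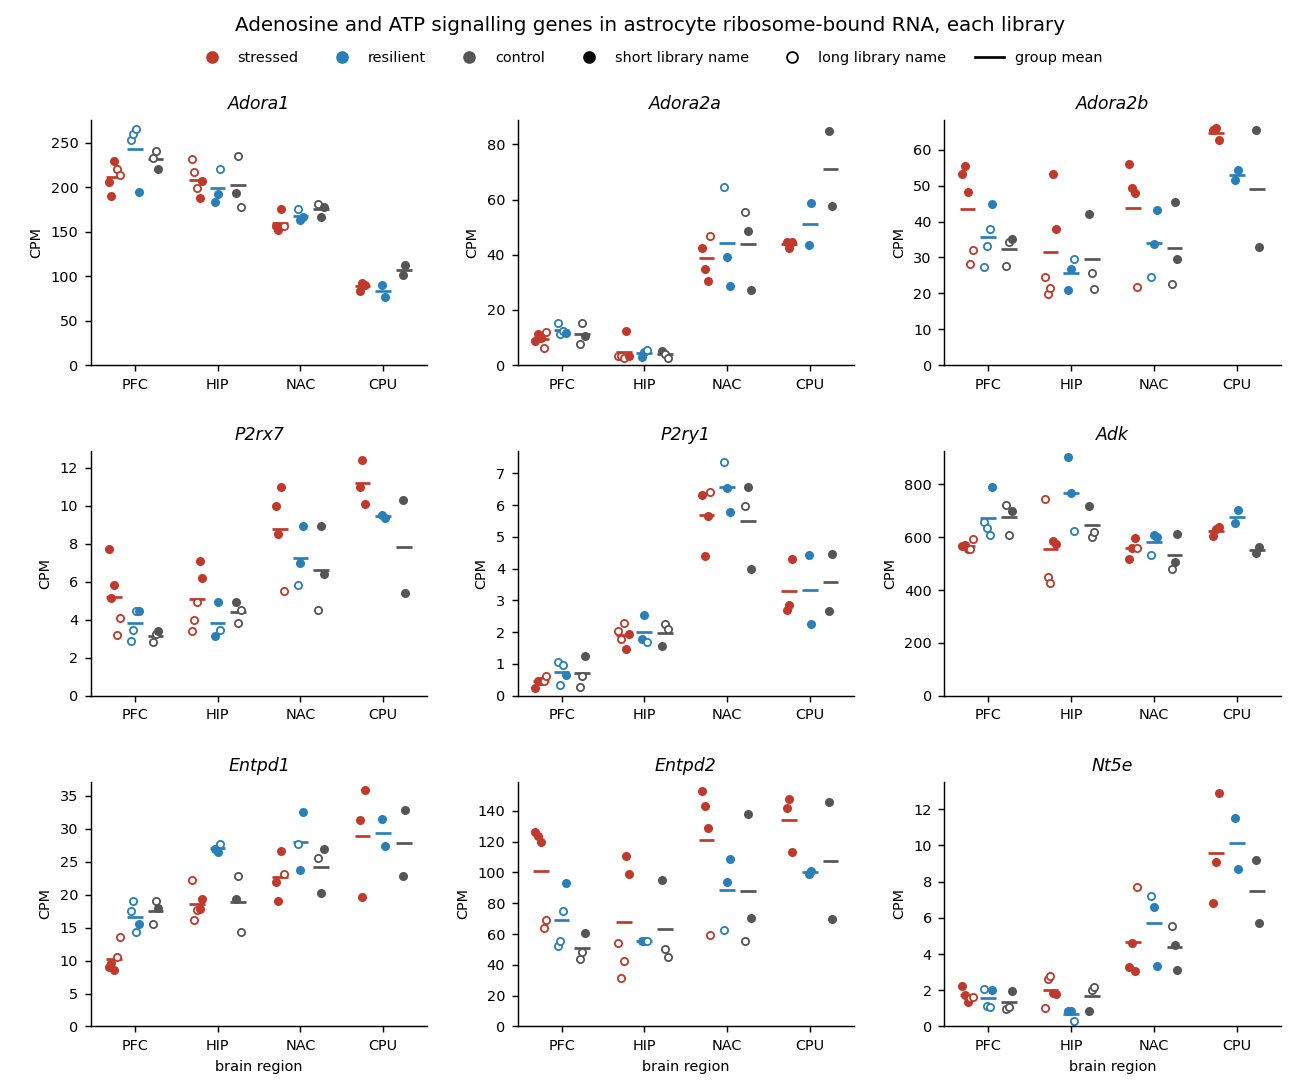
CPM (y axis) of the 9 genes in each of the 40 libraries, by brain region (x axis) and, from left to right in each region, stressed, resilient and control mice; filled points are libraries with short names, open points those with long names, and lines are group means. Entpd1 is lower in all 5 stressed PFC libraries than in every resilient and control PFC library, and open points lie low for Adora2b, P2rx7 and Entpd2.

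In mice without defeat, the receptors Adora1, Adora2a and P2ry1 and the enzyme Nt5e differed between brain regions. In the control libraries, these 4 of the 9 members were called for a difference among the 4 regions (edgeR quasi-likelihood F test with 3 degrees of freedom, Benjamini-Hochberg adjusted p under 0.05), against 18.8% of all genes tested. The adjusted p was 0.000422 for Adora2a, 0.00273 for Adora1, 0.00537 for Nt5e and 0.00547 for P2ry1. Adora2b (adjusted p = 0.488), Adk (0.285), Entpd2 (0.298), Entpd1 (0.119) and P2rx7 (0.0717) were not called in this edgeR test. Of the 54 combinations of a member with a pair of regions, 15 were called.

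Adora2a, whose receptor is known for its abundance in neurons of the striatum, had 7.77, 15.3 and 10.6 CPM in the control PFC, 5.11, 4.14 and 2.66 CPM in the HIP, 55.5, 48.7 and 27.3 CPM in the NAC, and 84.7 and 57.6 CPM in the CPU. The 4 regions did not overlap. Here and below, the share of all genes whose groups do not overlap was not counted, so such statements describe the named genes only. The log2 fold change ± SE of the edgeR fit was −3.42 ± 0.391 for the HIP against the NAC (adjusted p = 0.000752) and −4.17 ± 0.419 for the HIP against the CPU (adjusted p = 0.000321). The PFC was lower than the NAC at a log2 fold change of −1.96 ± 0.364 (adjusted p = 0.0092) and than the CPU at a log2 fold change of −2.71 ± 0.395 (adjusted p = 0.00217). The PFC was higher than the HIP by 1.47 ± 0.373 (edgeR adjusted p = 0.0424), a call lost in 6 of the 11 fits that left out 1 control library. It was also lost with the name form as a covariate (edgeR adjusted p = 0.0538). The NAC and the CPU did not differ beyond their spread (−0.75 ± 0.385, edgeR adjusted p = 1). The sum of 11 striatal projection neuron markers, a list that does not hold Adora2a, was 289 to 332 CPM in the control PFC, 515 to 746 in the HIP, 1256 to 2639 in the NAC and 2624 to 3240 in the CPU. Like Adora2a it was higher in the NAC and CPU than in the PFC and HIP, but it was lower in the PFC than in the HIP, where Adora2a was higher in the PFC. Ppp1r1b is the most abundant gene of this list, so the order of the sum need not hold for the other markers. In control NAC replicates 1, 2 and 3, with 55.5, 48.7 and 27.3 CPM of Adora2a, this sum was 2639, 2135 and 1256 CPM, and its part in the Adora2a difference was not tested.

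Adora1, the adenosine receptor that lowers cyclic AMP, was lowest in the CPU. It had 233, 241 and 221 CPM in the control PFC, 193, 235 and 178 CPM in the HIP, 181, 166 and 178 CPM in the NAC, and 101 and 112 CPM in the CPU. Both CPU libraries lay below every control library of the other regions. The PFC was higher than the CPU by 1.10 ± 0.144 (edgeR adjusted p = 0.00119) and the HIP by 0.91 ± 0.143 (adjusted p = 0.00328). The NAC against the CPU gave 0.68 ± 0.142 and was not called (edgeR adjusted p = 0.222, unadjusted p = 0.000525). Neighbours in the order of levels, PFC, HIP and NAC, did not differ beyond their spread in the edgeR pair tests (adjusted p = 0.404 for PFC against HIP and 0.27 for HIP against NAC).

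Nt5e, which makes adenosine, and P2ry1, which senses ADP, were higher in the NAC and CPU than in the PFC. Nt5e had 0.987, 1.05 and 1.95 CPM in the control PFC, 0.852, 2.03 and 2.16 CPM in the HIP, 5.54, 4.48 and 3.13 CPM in the NAC, and 9.22 and 5.74 CPM in the CPU. The NAC and CPU libraries lay above all PFC and HIP libraries. The PFC was lower than the CPU at a log2 fold change of −2.53 ± 0.437 (edgeR adjusted p = 0.00483) and than the NAC at a log2 fold change of −1.70 ± 0.405 (0.0262), and the HIP was lower than the CPU at a log2 fold change of −2.22 ± 0.432 (0.00879) and than the NAC at a log2 fold change of −1.39 ± 0.400 (0.0466). P2ry1 had 0.288, 0.627 and 1.25 CPM in the control PFC, 1.56, 2.27 and 2.11 CPM in the HIP, 5.96, 6.57 and 3.99 CPM in the NAC, and 2.68 and 4.45 CPM in the CPU. Its PFC level rested on 7, 15 and 34 counts. The PFC was lower than the NAC at a log2 fold change of −2.91 ± 0.446 (edgeR adjusted p = 0.00325) and than the CPU at a log2 fold change of −2.30 ± 0.474 (0.0109), and the HIP was lower than the NAC at a log2 fold change of −1.47 ± 0.412 (0.0411). For P2ry1 the NAC had the highest mean, whereas for Nt5e it was the CPU, but NAC and CPU were not called different for either gene (edgeR adjusted p = 1). When 1 control library was left out, the calls for HIP against NAC were lost in 9 of 11 fits for Nt5e and in 8 of 11 for P2ry1, and the Nt5e call for PFC against NAC in 4 of 11 (edgeR adjusted p up to 0.115). The Nt5e calls for PFC against CPU and HIP against CPU and the P2ry1 call for PFC against CPU were each lost in 1 of 11 fits. HIP against NAC was also called for neither gene with the name form as a covariate (edgeR adjusted p = 0.066 for Nt5e and 0.0758 for P2ry1).

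P2rx7 was called lower in the PFC than in the CPU (−1.37 ± 0.382, edgeR adjusted p = 0.0391), with 2.84, 3.26 and 3.38 CPM in the control PFC and 10.3 and 5.39 CPM in the CPU. With the name form as a covariate that call was lost (−1.03, edgeR adjusted p = 0.143), as it was in 5 of the 11 fits without 1 library. By region pair, the members called were 1 for PFC against HIP (6.42% of all genes, 2.21% higher and 4.21% lower), 3 for PFC against NAC (9.01%, 3.48% higher and 5.53% lower), 5 for PFC against CPU (13.2%, 5.29% higher and 7.86% lower), 3 for HIP against NAC (11.6%, 6.15% higher and 5.46% lower), 3 for HIP against CPU (10.7%, 5.32% higher and 5.4% lower) and 0 for NAC against CPU (0.0374%). For NAC against CPU, 1 member, Adora1, had an unadjusted p under 0.05 in edgeR. The PFC against the CPU gave the largest number of called members, 4 lower and 1 higher in the PFC.

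In the PFC, 2 ectonucleotidase genes were called in opposite directions for stressed against control mice. Entpd1 was lower and Entpd2 higher, 2 of the 9 members called, against 28.1% of all genes tested (16.4% higher and 11.7% lower). The surface enzyme Nt5e was not called (0.41 ± 0.327, edgeR adjusted p = 0.363). The Entpd2 call was lost in some fits given below. Entpd2 was also higher with short library names within the PFC (0.8 ± 0.126, edgeR adjusted p = 0.0128). Against resilient mice only Entpd1 passed the threshold, 1 of 9, against 25% of all genes. The median log2 fold change of the 9 members was −0.09 against control and −0.13 against resilient mice, beside 0.04 and 0.03 over all genes tested. The share of members called, 2 of 9 and 1 of 9, is close to or below the share of all genes.

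Entpd1 had 8.99, 9.58, 8.59, 10.5 and 13.6 CPM in the stressed PFC libraries, 17.5, 19.0, 14.3 and 15.5 CPM in the resilient ones, and 15.5, 19.0 and 17.9 CPM in the control ones. Every stressed library was below every resilient and every control library, and resilient and control libraries overlapped. How many of all genes were ordered in this way was not counted. The log2 fold change was −0.74 ± 0.143 against control mice (edgeR adjusted p = 0.00364) and −0.63 ± 0.133 against resilient mice (0.00599). For resilient against control mice it was −0.11 ± 0.151 (edgeR adjusted p = 1). Libraries with long names held only stressed replicates 4 and 5, control replicates 1 and 2, and resilient replicates 1 to 3. Within them the values were −0.57 against control (edgeR adjusted p = 0.0156) and −0.47 against resilient mice (0.0273). Among short names, with only 1 resilient and 1 control library and so given without a test, they were −0.88 and −0.76. Leaving out each of the 12 libraries in turn gave −0.85 to −0.68 against control and −0.74 to −0.57 against resilient mice, and the call was kept in each of these fits.

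Other values moved with the stressed PFC group. Microglia and endothelial cells are also known to make CD39, and their markers were higher there. The microglia sum was 40 to 96.9 CPM in stressed, 28.8 to 31.2 in resilient and 20.8 to 32.7 CPM in control mice, and 10 of the 14 markers rose and 0 fell against control mice in edgeR. The endothelial sum was 25.3 to 73.4 CPM in stressed, 15.2 to 19.1 in resilient and 12.9 to 18.5 CPM in control mice, and 4 of the 10 markers tested rose and 0 fell. The general neuron sum was 2709 to 5210 CPM in stressed, 2294 to 2900 in resilient and 2070 to 2826 CPM in control mice. The astrocyte sums overlapped at 31495 to 41523, 34587 to 44066 and 38503 to 39970 CPM, and 5 of 16 markers rose and 0 fell. Excitatory neuron sums were 390 to 1521, 265 to 308 and 168 to 366 CPM in that order, and 6 of 8 markers rose. Mural and meningeal sums averaged 56.0 and 89.8 CPM in stressed and 28.2 and 43.9 CPM in control mice. Oligodendrocyte precursor sums were lower in stressed mice, at 460 to 557, 510 to 669 and 641 to 693 CPM, though 2 markers rose and 1 fell. Entpd1 thus changed in the direction opposite to the microglia and endothelial markers, and the part of any of these lists in the result was not tested. Stressed PFC replicates 4 and 5 also stood apart by transcript length: the correlation of a library's log2 deviation from its region's mean with log2 exon length, across 12865 genes, was 0.466 and 0.400 in them and −0.310 to −0.033 in the other 10 PFC libraries. Without these 2 libraries Entpd1 was at −0.87 against control (edgeR adjusted p = 0.00016), and with them as the only stressed libraries at −0.58 (0.01).

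Entpd2, the enzyme that leaves ADP, had 126, 124, 120, 63.9 and 69.4 CPM in the stressed PFC libraries, 52.4, 55.5, 75.0 and 93.2 CPM in the resilient ones and 43.6, 48.3 and 61.0 CPM in the control ones. All stressed libraries lay above all control libraries, and they overlapped the resilient ones. The log2 fold change was 1.04 ± 0.308 against control mice (edgeR adjusted p = 0.0256) and 0.63 ± 0.275 against resilient mice (0.109). The 3 high stressed libraries, replicates 1 to 3, were those with short names, and the high resilient and control libraries were also the ones with short names. Within the long form Entpd2 was higher than in control mice by 0.48 (edgeR adjusted p = 0.0148). That fit compares stressed replicates 4 and 5, which stood apart by transcript length, with control replicates 1 and 2. Within the short form, which holds 1 control and 1 resilient library, it was at 1.12 against control mice, given without a test. The call against control mice was lost without control replicate 1 (0.95, edgeR adjusted p = 0.115), without control replicate 2 (1.01, 0.0881) and without stressed replicates 1 to 3 (0.34, 0.25).

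P2rx7, the ATP-gated channel, had 7.73, 5.13, 5.82, 3.18 and 4.09 CPM in stressed, 2.89, 3.45, 4.45 and 4.45 CPM in resilient and 2.84, 3.26 and 3.38 CPM in control PFC libraries. Stressed libraries 1 to 3 were above all others and replicates 4 and 5 were not. The log2 fold change against control mice was 0.77 ± 0.298, which was not called in edgeR (adjusted p = 0.0671) and was called in DESeq2 (adjusted p = 0.0379). P2rx7 is also known from microglia, and the microglia marker sum was 96.9, 71.1 and 70.6 CPM in stressed replicates 1 to 3 and at most 44.9 CPM in the other 2 stressed libraries. It moved with P2rx7, and its part in the result was not tested. Adora2b, an adenosine receptor of low affinity, had 53.3, 55.6, 48.4, 28.1 and 32.1 CPM in stressed, 27.4, 33.1, 38 and 44.8 CPM in resilient and 27.5, 34.3 and 35.1 CPM in control libraries. The same 3 stressed libraries were high, and the 2 with long names lay within the range of the control libraries. Its log2 fold change was 0.49 ± 0.271 against control and 0.36 ± 0.246 against resilient mice (edgeR adjusted p = 0.187 and 0.291). Within the long form the values against control mice were 0.20 for P2rx7 (edgeR adjusted p = 0.542) and −0.09 for Adora2b (0.662). Against the 1 control library of the short form they were 0.98 and 0.68, given without a test.

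The other 5 members were not called in the PFC. Adk had 554 to 595 CPM (median 565) in stressed, 609 to 789 (median 647) in resilient and 608 to 721 CPM (median 700) in control libraries. All 5 stressed libraries were below all resilient and control ones, yet the shift was small, −0.22 ± 0.121 against control and −0.18 ± 0.112 against resilient mice (edgeR adjusted p = 0.192 and 0.239). Adora1 was at −0.09 ± 0.0978, Adora2a at −0.18 ± 0.240, Nt5e at 0.41 ± 0.327 and P2ry1 at −0.65 ± 0.470 against control mice, with edgeR adjusted p of 0.479, 0.589, 0.363 and 0.311. P2ry1 rested on 7 to 15 counts in stressed, 9 to 27 in resilient and 7 to 34 counts in control PFC libraries, and leaving out 1 library moved its value against control mice between −1.02 and 0.00. Resilient against control PFC libraries gave 0 members called (0% of all genes), 0 at an unadjusted p under 0.05 in edgeR, and 0 in DESeq2.

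**Figure D3:**
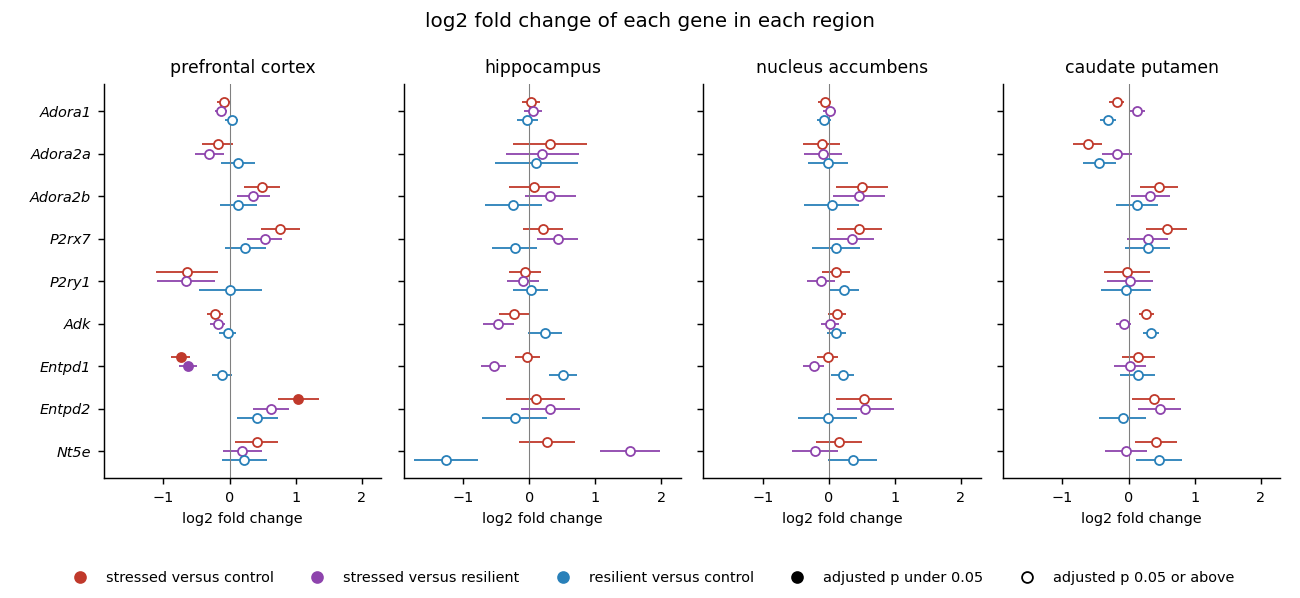
log2 fold change (x axis) of each gene (y axis) in each of the 4 regions, for stressed against control, stressed against resilient and resilient against control mice; bars are standard errors of the edgeR fit and filled points have an adjusted p under 0.05. The filled points are Entpd1 and Entpd2 in the PFC, and Nt5e in the HIP has the widest spread between comparisons.

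Outside the PFC, no member was called between conditions in any of the 9 comparisons, and neither was any other gene (0% of all genes in each), with edgeR; DESeq2 also called 0 members in each. At an unadjusted p under 0.05, edgeR gave 2 members for stressed against resilient and 2 for resilient against control mice in the HIP, 2 for stressed against control and 2 for resilient against control mice in the CPU, and 0 in the other 5 comparisons. In the HIP these were Nt5e and Entpd1 both times. Nt5e had 1.02, 2.63, 2.81, 1.86 and 1.81 CPM in stressed, 0.879, 0.855 and 0.329 CPM in resilient and 0.852, 2.03 and 2.16 CPM in control libraries. All 5 stressed libraries were above the 3 resilient ones, on 26 to 85 counts against 9 to 24 counts. The log2 fold change was 1.52 ± 0.454 for stressed against resilient mice (edgeR adjusted p = 0.268) and −1.26 ± 0.490 for resilient against control mice (edgeR adjusted p = 1).

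Entpd1 in the HIP had 22.2, 16.2, 17.6, 17.8 and 19.4 CPM in stressed, 26.9, 26.4 and 27.7 CPM in resilient and 19.4, 22.8 and 14.4 CPM in control libraries. Here the resilient libraries stood apart, above all others, whereas in the PFC it was the stressed ones. The fold change was −0.54 ± 0.185 for stressed against resilient mice (edgeR adjusted p = 0.268), 0.51 ± 0.210 for resilient against control mice (edgeR adjusted p = 1) and −0.03 ± 0.188 for stressed against control mice (adjusted p = 0.946). In the NAC, Entpd1 had 21.9, 19.0, 26.6 and 23.2 CPM in stressed, 27.7, 23.8 and 32.6 CPM in resilient and 25.5, 20.2 and 26.9 CPM in control libraries. The 3 NAC groups overlapped. In the CPU it had 31.3, 19.7 and 35.8 CPM in stressed, 31.4 and 27.4 CPM in resilient and 22.8 and 32.8 CPM in control libraries, also with overlap.

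In the CPU, Adora2a had 44.7, 42.4 and 44.7 CPM in stressed, 43.6 and 58.7 CPM in resilient and 84.7 and 57.6 CPM in control libraries. Stressed libraries were below both control libraries (−0.62 ± 0.225, edgeR adjusted p = 0.497), and the striatal projection neuron sum was 1694 to 2878 CPM in stressed and 2624 to 3240 CPM in control libraries, whose part was not tested. Adk in the CPU had 603, 632 and 638 CPM in stressed, 652 and 701 CPM in resilient and 541 and 561 CPM in control libraries. Both defeated groups lay above control, by 0.27 ± 0.114 (edgeR adjusted p = 0.517) for stressed and 0.34 ± 0.124 (edgeR adjusted p = 0.561) for resilient mice. Adora1 in the CPU had 83.8, 91.8 and 89.8 CPM in stressed, 90.1 and 76.5 CPM in resilient and 101 and 112 CPM in control libraries. Defeated mice were below control mice in each library, with −0.18 ± 0.114 for stressed (edgeR adjusted p = 0.628) and −0.31 ± 0.125 for resilient mice (edgeR adjusted p = 0.579).

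Averaged with equal weight over the 4 regions in 1 fit of all 40 libraries, Entpd1 was again the member that passed the threshold. It was lower in stressed than in resilient mice at a log2 fold change of −0.34 ± 0.0900 (edgeR adjusted p = 0.012), 1 of 9 members called against 19.1% of all genes. For stressed against control mice 0 members were called against 10.2% of all genes, with 2 at an unadjusted p under 0.05 in edgeR, P2rx7 (0.50 ± 0.173, adjusted p = 0.0579) and Entpd2 (0.51 ± 0.228, adjusted p = 0.133). DESeq2 called 1, P2rx7 (0.49, adjusted p = 0.0246). P2rx7 was also called in edgeR with the name form as a covariate, at 0.40 against control (adjusted p = 0.0265) and 0.35 against resilient mice (0.0331). For resilient against control mice 0 members were called (0.0179% of all genes), 0 at an unadjusted p under 0.05 and 0 in DESeq2. These averages share the PFC libraries and the control or stressed libraries with the comparisons above.

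A direct test with 3 degrees of freedom asked whether the stress contrast was unequal among the 4 regions. In edgeR, 0 members and 0% of all genes were called for stressed against control and for stressed against resilient mice, and DESeq2 called 0 members in both. At an unadjusted p under 0.05 edgeR gave 1 member for stressed against control mice, Entpd1 (edgeR adjusted p = 0.285), and 2 for stressed against resilient mice, Nt5e (edgeR adjusted p = 0.7) and Entpd1 (edgeR adjusted p = 0.7). The call of Entpd1 in the PFC alone is therefore not shown to be particular to that region.

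Several members differed with the form of the library name. This comparison was made after the data were seen, over the 33 libraries of the PFC, HIP and NAC with region and condition held in the fit. With short against long names, 4 of 9 members were called, all higher, against 33.6% of all genes (15% higher and 18.5% lower). Entpd2 was higher by 0.94 ± 0.120 (edgeR adjusted p = 5.96e-06), Adora2b by 0.78 ± 0.120 (4.33e-05), P2rx7 by 0.64 ± 0.107 (0.000101) and Adk by 0.26 ± 0.0696 (0.00632). Entpd2, called in the stressed PFC against control mice, was thus also the member with the largest shift by name form. Entpd1, called in the stressed PFC against both control and resilient mice, was at 0.02 ± 0.0813 (edgeR adjusted p = 0.867). Adora1, Adora2a, P2ry1 and Nt5e lay between −0.03 and 0.13.

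In the NAC the name forms did not overlap for the 3 members that moved most. The share of all genes without overlap there was not counted, so this describes the 3 members only. Entpd2 had 70.6 to 153 CPM (median 129) in the 7 NAC libraries with short names and 55.2, 62.5 and 59.4 CPM in the 3 with long names. Adora2b had 29.6 to 56.1 CPM (median 45.5) with short and 21.7 to 24.7 CPM (median 22.6) with long names. P2rx7 had 6.42 to 11 CPM (median 8.92) with short and 4.51 to 5.85 CPM (median 5.51) with long names. Fitted within a region, 3 members were called in the NAC (8.55% of all genes), 2 in the PFC, Entpd2 and Adora2b (2.92%) and 0 in the HIP (0%), where 3 members had an unadjusted p under 0.05 in edgeR. In the HIP the values were 1.01 ± 0.230 for Entpd2, 0.77 ± 0.235 for Adora2b and 0.59 ± 0.198 for P2rx7 (edgeR adjusted p = 0.166, 0.193 and 0.211). The sum of astrocyte markers was higher with short names too: medians were 40989 and 35831 CPM in the PFC, 44496 and 37633 in the HIP, and 35778 and 26302 CPM in the NAC, short before long. General neuron markers ran the other way in medians, with 2826 and 2879 CPM in the PFC, 1834 and 3082 in the HIP, and 1120 and 2404 CPM in the NAC. The part of these sums in the shift of Entpd2, Adora2b and P2rx7 was not tested.

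**Figure D4:**
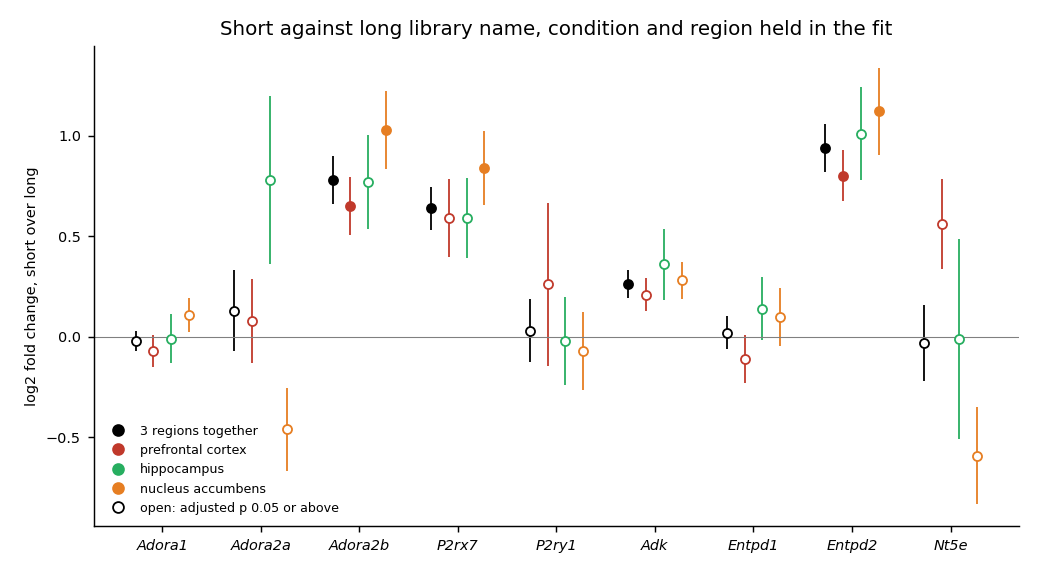
log2 fold change (y axis) of each gene (x axis) for libraries with short over those with long names, in 3 regions together and in each region; bars are standard errors of the edgeR fit and open points have an adjusted p of 0.05 or above. Adora2b, P2rx7 and Entpd2 lie above 0 in all 3 regions, from 0.59 to 1.12, and Entpd1 lies near 0.

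The wider pathway was read from 56 further genes of ATP release, receptors, breakdown and transport, all present in the counts, of which 19 stayed under 1 CPM in all 40 libraries. In the PFC 35 were tested, and for stressed against control mice 13 rose and 6 fell, beside 16.4% higher and 11.7% lower over all genes, with a median log2 fold change of 0.38 beside 0.04. Against resilient mice 5 rose and 4 fell, beside 14.3% higher and 10.8% lower over all genes, with a median of 0.14 beside 0.03. The counts against resilient mice were thus near the background. All 6 that fell were enzymes of adenosine, AMP and related nucleotides, 6 of the 16 tested, and 0 of that list rose. Those that rose were 2 of 2 other surface enzymes tested, 3 of 4 nucleoside transporters, 3 of 4 genes of ATP release, 2 of 3 intracellular diphosphatases, 1 of 2 P2X and 2 of 4 P2Y receptors.

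Ak3, a mitochondrial adenylate kinase that uses GTP, had the smallest p of the 56 genes in both comparisons. It averaged 387 ± 18 CPM in stressed, 636 ± 33.1 in resilient and 628 ± 67.0 CPM in control mice (SD, n = 5, 4 and 3), and fell by 0.67 ± 0.0933 on the log2 scale against control mice (edgeR adjusted p = 0.000993) and by 0.65 ± 0.0867 against resilient mice (0.000893). Ak1, the cytosolic adenylate kinase, averaged 338 ± 21.6 in stressed, 430 ± 16.7 in resilient and 480 ± 12.1 CPM in control mice. It fell by 0.47 ± 0.102 against control and by 0.28 ± 0.0945 against resilient mice (edgeR adjusted p = 0.00677 and 0.0478). Ak4 (−0.38 ± 0.101) and the nucleotidase Nt5c3b (−0.43 ± 0.0836) also fell against both groups, and Pnp (−0.34 ± 0.114), which splits inosine, and Adal (−0.34 ± 0.117) fell against control mice. Every stressed library had less Ak3 (359 to 409 CPM) than every resilient (603 to 682 CPM) and control library (551 to 670 CPM).

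Alpl, tissue-nonspecific alkaline phosphatase, which strips phosphate from nucleotides outside the cell, averaged 42.4 ± 15.6 CPM in stressed, 23.0 ± 5.57 in resilient and 16.9 ± 4.42 CPM in control mice. It rose by 1.39 ± 0.352 against control and 0.97 ± 0.312 against resilient mice (edgeR adjusted p = 0.0132 and 0.0387). Lrrc8a, a subunit of volume-regulated anion channels, averaged 23.7 ± 7.88 CPM in stressed, 13.2 ± 3.23 in resilient and 13.3 ± 2.52 CPM in control mice and rose by 0.89 ± 0.311 and 0.93 ± 0.282. Panx2, a pannexin, averaged 10.9 ± 6.25 CPM in stressed, 4.50 ± 0.524 in resilient and 3.87 ± 0.474 CPM in control mice and rose by 1.48 ± 0.350 and 1.30 ± 0.311. Entpd6 (0.55 ± 0.118), the equilibrative nucleoside transporters Slc29a1 (0.92 ± 0.202), Slc29a2 (0.73 ± 0.247) and Slc29a3 (0.86 ± 0.281), Panx1 (0.52 ± 0.167) and P2ry12 (0.62 ± 0.173), an ADP receptor known as a microglia marker, rose against control mice. Alpl, Lrrc8a, Slc29a2 and Slc29a3 were also higher in libraries with short names (1.21 ± 0.134, 0.77 ± 0.164, 0.64 ± 0.0897 and 0.84 ± 0.117, edgeR adjusted p at most 0.00106), as were Pnp (0.20) and P2ry12 (0.31), whereas Panx2 was lower (−0.54). Ak3, Ak4 and Nt5c3b were not called for the name form (0.03, −0.02 and 0.07). The microglia, endothelial and neuron marker sums given above for stressed PFC libraries moved with these genes too, and their part was not tested. Outside the PFC, none of these 56 genes, and no gene at all, was called between conditions of a region in edgeR. Averaged over the 4 regions, 5 rose and 2 fell of 40 tested for stressed against control mice, beside 5.79% higher and 4.37% lower over all genes. For stressed against resilient mice 5 rose and 5 fell, beside 11.7% higher and 7.46% lower over all genes.

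Over the 12 groups, the genes whose mean log2 CPM correlated best with a member, out of 16758 compared, were Slc25a18 for Adora1 (Pearson r = 0.990), Rxrg for Adora2a (0.991), AK208460 for Adora2b (0.990), Ntrk2 for P2rx7 (0.989), Nkx2-1 for P2ry1 (0.983), Akr1b10 for Adk (0.960), Ugdh for Entpd1 (0.971), Slc7a10 for Entpd2 (0.978) and Itga5 for Nt5e (0.980). These are descriptions over 12 points that share libraries and regions. Among the members themselves, P2rx7 was most like Nt5e (0.93) and Entpd2 (0.92), and Adora1 was opposite to Nt5e (−0.88) and P2rx7 (−0.87).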

How the data were processed

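RNA bound to astrocyte ribosomes was measured in 40 libraries. The deposited values are raw read counts per gene, which the authors obtained by aligning to mm10 with STAR 2.0.0e and counting with HTSeq, as the submitters' processing notes list. Which HTSeq version and which strand option they used is not given in the sources used here. Rows that name no gene (no feature, ambiguous or not unique), 16.95 to 20.12% of each file's sum, were left out of library sizes. The members, gene lists and tests were chosen with earlier results of these data known.

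Groups came from the labels. Genes passing filterByExpr were tested with edgeR 4.0.16 in R 4.3.3 (TMM factors, robust quasi-likelihood F test), with 1 fit per region, 1 of the control libraries and 1 of all 40 libraries. P-values were adjusted by Benjamini-Hochberg over all genes tested and called below 0.05. They measure the spread between libraries of a group, which holds differences of name form as well as of the pools of mice. Fits across regions took libraries of different regions as independent, though whether one mouse gave several regions is not stated. The scripts were tested on simulated data with the same spread for all genes and no effect of name form, which checks the code and not the false calls in these data. CPM is counts per M of a library's total in genes; levels between genes were divided by the exon length of GENCODE vM21 (GRCm38). The likeness of genes used log2 CPM with a prior count of 2. Alternatives were DESeq2 1.42.0, RLE factors, no filter on low counts, a replicate block, leaving out each library, and, added after the data were seen, the name form. The 3 libraries with the same number in the NAC of resilient and control mice deviated together (r = 0.25 to 0.52). The labels do not say what a number marks. Same-numbered libraries there also shared their name form, so a pairing cannot be told apart from the form. The replicate block called 0 members there, as did the fit without it. No 2 libraries of a group agreed within sampling noise.

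All 9 members are named. Of the wider list, genes called in a region's comparison of conditions with a mean of at least 5 CPM in 1 of its groups are named with values.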

Additional observations from a re-analysis of the deposited data

Results flagged for a closer look

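One library stood apart in 1 of the 36 combinations of a member and a group of 4 or 5 libraries that were tested for an outlying value, and chance flags about 1 in 20. Stressed HIP replicate 4 had 12.3 CPM of Adora2a, against 2.41 to 3.41 CPM in the other 4 stressed HIP libraries. Its sum of striatal projection neuron markers was 628 CPM, within the 533 to 632 CPM of that group. That sum is led by Ppp1r1b; over the 11 markers singly, the median log2 fold change in the HIP was 1.52 for stressed against control and 1.63 for stressed against resilient mice. The part of these markers was not tested.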

How the results depend on the processing

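In the PFC, leaving out 1 library gave 1 to 3 members called for stressed against control mice and 1 to 3 for stressed against resilient mice. Within short names the counts were 4 for stressed against control, 3 for stressed against resilient and 1 for resilient against control mice, on 1 control and 1 resilient library assumed to vary like the stressed ones, so that they say little, and within long names 2 for stressed against resilient mice. Without stressed replicates 4 and 5 both stressed comparisons gave 4, and without stressed replicates 1 to 3 the one against control gave 1. In the HIP, short names gave 1 member for stressed against resilient mice, Entpd2 (1.03, edgeR adjusted p = 0.0297). The region test gave 8 members and 35 pair calls with all 40 libraries, 20 pair calls with DESeq2, and 11 with the name form as a covariate. The average over regions for stressed against control mice gave 1 member with DESeq2, 1 with the name form covariate and 0 to 2 without 1 library. For stressed against resilient mice it gave 3 with the name form covariate and 1 to 2 without 1 library. The name form comparison gave 2 members within the PFC and 0 within the HIP. With the replicate block the PFC counts were 2 and 1, Entpd1 was at −0.84 against control mice (edgeR adjusted p = 0.00672), and the pair calls fell to 11. Outside the NAC comparison named under the processing, same-numbered libraries correlated by −0.23 to 0.69. The highest value was for number 3 of stressed and control HIP libraries. Whether a shared number marks a pairing is therefore not known. No result changed direction while called. The share of all genes called is not given beside the counts of these alternative fits. A higher or lower count is therefore not read as a result about the members. The causes were not tested. Many groups had 2 or 3 pools, and P2ry1 and Nt5e had under 100 counts in each PFC library.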
